A study of Mus musculus with 12 samples.

Results

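The genes described here encode voltage-gated calcium channels, voltage-gated sodium channels and channels of the TRPC, TRPM and TRPV families. They were chosen by symbol alone, which gave 58 of the 32867 genes in the table, with Trpm1 left out. By subfamily they are 10 Cacna1 genes (the calcium-conducting pore), 4 Cacna2d, 4 Cacnb and 8 Cacng genes (its auxiliary subunits), 10 sodium channel alpha genes (the pore), 4 sodium channel beta genes (its partners), and 6 Trpc, 7 Trpm and 5 Trpv genes. RNA of whole mouse retina, depleted of ribosomal RNA, was sequenced in 4 groups of 3 samples, namely C3H wild-type mice, the model Pde6b rd1 at postnatal day 13, the model Pde6b rd10 at postnatal day 23 and the model Prph rd2 at postnatal day 29. Per the labels the 3 C3H samples were taken at days 13, 23 and 29, 1 sample each, and every model was compared with all 3.

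Both Pde6b lines carry mutations in the gene for the beta subunit of the rod phosphodiesterase, and Prph rd2 mice carry a mutation in the gene for peripherin, a structural protein of the outer segment. All 3 lines lose photoreceptors, and the labels place each model at the peak of photoreceptor cell death. The methods describe C3H as carrying wild-type alleles of Pde6b and Prph2, place Pde6b rd1 and Prph rd2 on the C3H background and Pde6b rd10 on C57Bl6/J, and state that sex was not a criterion. The label of the Prph rd2 samples instead names C57BL6/J. Age differs between the models, and for Pde6b rd10 genotype, day and strain cannot be told apart. The sex markers given below also differ between the groups and cannot be told apart from genotype. The study calls the samples of a group biological replicates, and the sources used here do not say how many animals went into each, so that p-values measure only the spread between these samples.

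Voltage-gated calcium channels open on depolarisation, and at the ribbon synapse of photoreceptors and bipolar cells they couple voltage to the release of glutamate. Voltage-gated sodium channels carry the action potentials of ganglion cells and of some amacrine and bipolar cells, and their beta subunits tune gating and anchor the pore to adhesion molecules. TRP channels are mostly non-selective cation channels that respond to lipids, temperature, osmotic state or internal calcium. In whole retina, fewer cells of a type and less RNA per cell cannot be told apart.

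The sequences of parts of 3 promoter windows and of 5 back-splice junctions, all from genes named below, come first as a description. The first set belongs to sodium channel genes that were lower in Pde6b rd1, limited to genes with at least 150 bases of the window before their annotated start. The window lies just upstream of the RefSeq start on GRCm38.p6. Shown is only its part before the annotated start of the gene, 5′ to 3′ on the strand of the gene. Each part ends at the annotated start, and the bases of the window nearest the RefSeq start are left out. The parts lie at chr2:66440841-66441087 (minus strand) for Scn1a, chr9:45117626-45117781 (plus) for Scn2b and chr2:66784915-66785160 (minus) for Scn7a.
Scn1a: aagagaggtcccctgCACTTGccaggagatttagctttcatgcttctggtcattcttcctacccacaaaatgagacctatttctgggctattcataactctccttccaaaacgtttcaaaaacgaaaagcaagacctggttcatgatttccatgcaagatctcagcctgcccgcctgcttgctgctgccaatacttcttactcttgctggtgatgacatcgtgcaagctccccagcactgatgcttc
Scn2b: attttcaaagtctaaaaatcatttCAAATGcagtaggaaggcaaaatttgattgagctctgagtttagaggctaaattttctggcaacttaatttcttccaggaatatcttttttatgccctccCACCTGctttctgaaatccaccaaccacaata
Scn7a: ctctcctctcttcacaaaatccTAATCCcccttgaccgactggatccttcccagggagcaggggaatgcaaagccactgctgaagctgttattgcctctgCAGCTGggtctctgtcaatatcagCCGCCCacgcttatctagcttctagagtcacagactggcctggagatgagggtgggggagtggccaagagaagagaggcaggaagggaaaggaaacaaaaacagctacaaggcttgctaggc

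Capitals mark matches, on either strand, to the motifs searched. One was the E-box, written CANNTG, which was found once in Scn1a and Scn7a and at 2 places in Scn2b, and which 66.2% of 32851 promoter windows of 250 bases hold. Another was the core of the homeodomain site used by photoreceptor factors, written TAATCC, which was found in Scn7a and is held by 6.25% of all windows. The GC box, written GGGCGG, appears in Scn7a as its reverse complement and is held by 32.7% of windows. No match to the nuclear receptor site written AGGTCA (in 14.0% of windows) or to the box written TATAAA (in 12.4%) was found in the stretches shown. The motifs do not overlap there. The 60 windows of the 46 channel genes with an entry held these motifs, in the order given, in 65.0%, 5.0%, 31.7%, 8.33% and 8.33%. The stretches shown are shorter than the 250-base windows behind these shares, most of all for Scn2b. The matches are descriptions of these letters and no test of binding.

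The second set holds the junctions of circular RNAs (circRNAs) from channel genes, formed when the end of one exon is joined back to the start of an exon upstream. Those of Trpc6, Trpm3, Cacna1f and Cacna2d1 are shown because these circRNAs were called against C3H in at least 1 model. The calls of Cacna1f and Cacna2d1, in Pde6b rd1, came through a filter passed by C3H reads alone, and nothing is read from them. The junction of Cacnb2 is shown because its circRNA was also found in all 12 samples and was not called. Lower case is the end of the last exon and capitals are the start of the first exon, read from GRCm38.
Trpc6: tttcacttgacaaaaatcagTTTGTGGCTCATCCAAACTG
Trpm3: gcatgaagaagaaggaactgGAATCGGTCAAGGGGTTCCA
Cacna1f: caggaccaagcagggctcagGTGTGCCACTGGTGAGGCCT
Cacna2d1: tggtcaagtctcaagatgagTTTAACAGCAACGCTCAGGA
Cacnb2: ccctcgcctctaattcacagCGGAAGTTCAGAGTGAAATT

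The depth was 17049495 to 24755890 reads on genes in a sample, of which the channel genes took between 0.334 and 0.385%. Levels are given in FPKM, which scales reads to the length of the gene and to the reads on genes, and tests were run on the counts with edgeR's quasi-likelihood test. Genes count as called where the unadjusted p was under 0.05 and the change at least 1.5-fold, and adjusted p-values are Benjamini-Hochberg values over every gene tested. The summed level of 8 rod markers lay between 25088 and 25640 CPM (counts scaled to library size) in C3H, 12883 and 13103 in Pde6b rd1, 16394 and 17561 in Prph rd2, and 22063 and 23020 in Pde6b rd10. Of 5 sex markers, Xist was called higher in all 3 models, at 13428 counts or more in each of their samples against 8 to 10 in C3H. The 4 Y-linked genes had 0 counts in each Pde6b rd1 sample, were also called lower for Prph rd2, and were not called for Pde6b rd10. By these markers the C3H samples read as male and the Pde6b rd1 samples as female. Between C3H and Pde6b rd1, sex thus cannot be told apart from genotype. Each Prph rd2 and Pde6b rd10 sample held both Xist and Y-linked reads, and so reads as RNA of both sexes. Xist measured 99.1, 86.6 and 109 FPKM in Prph rd2 and 42.5, 40.0 and 45.0 in Pde6b rd10. The Y-linked gene Kdm5d measured 1.55, 1.44 and 1.69 FPKM in Prph rd2 and 2.80, 2.73 and 2.82 in Pde6b rd10. Whether the samples of a group came from separate animals cannot be told, so the p-values are not taken to measure spread between animals.

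Per length, 13 channel genes stood at 10 FPKM or more in all 12 samples and 13 stayed under 1 FPKM in all of them. The highest level belonged to Cacna2d4, the alpha2delta partner of the photoreceptor calcium channel, at 50.9, 50.3 and 49.5 FPKM in C3H. The leading members of the other calcium channel subfamilies over all samples were the pore gene Cacna1f, the beta subunit gene Cacnb2 and Cacng4, whose product escorts AMPA receptors. Among sodium channels Scn2a and Scn2b led, and among TRP genes Trpc1, Trpm3 and Trpv2. Scn10a, a sodium channel of sensory neurons, had at most 3 counts in every sample, the floor used here, and Cacng1 and Trpv6 were at or under it in all C3H samples.

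In Pde6b rd1, 9 of the 50 channel genes tested were called, and all 9 were lower. This is 18% of those tested, against 15.0% of all 18310 genes called in either direction with 6.03% lower and 8.98% higher. None was called higher by edgeR or by DESeq2, although 10 were higher and 23 lower at an unadjusted p under 0.05 with any fold (20 and 46%, against 25.0 and 24.7% of all genes). The median log2 fold change was -0.14 over the channel genes and -0.01 over all genes tested. Among them were the sodium channel beta genes Scn2b and Scn4b and the alpha genes Scn1a, Scn4a and Scn7a.

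In Pde6b rd10, 13 of 52 channel genes were called, or 25% against 23.9% of all 18704 genes. Of these 8 were higher and 5 lower, where 15.9% of all genes were called higher and 8.08% lower. In Prph rd2 only Scn4b was called higher and only Scn4a lower, 3.85% of 52 channel genes against 4.57% of all 18581 genes, with 2.68% higher and 1.89% lower. At an adjusted p under 0.05 with any fold, the channel genes that differed from C3H numbered 32 for Pde6b rd1, 39 for Pde6b rd10 and 17 for Prph rd2, so that most differences were smaller than 1.5-fold. These are 64, 75 and 32.7% of the channel genes tested, against 43.2, 54.1 and 9.70% of all genes.

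**Figure D1:**
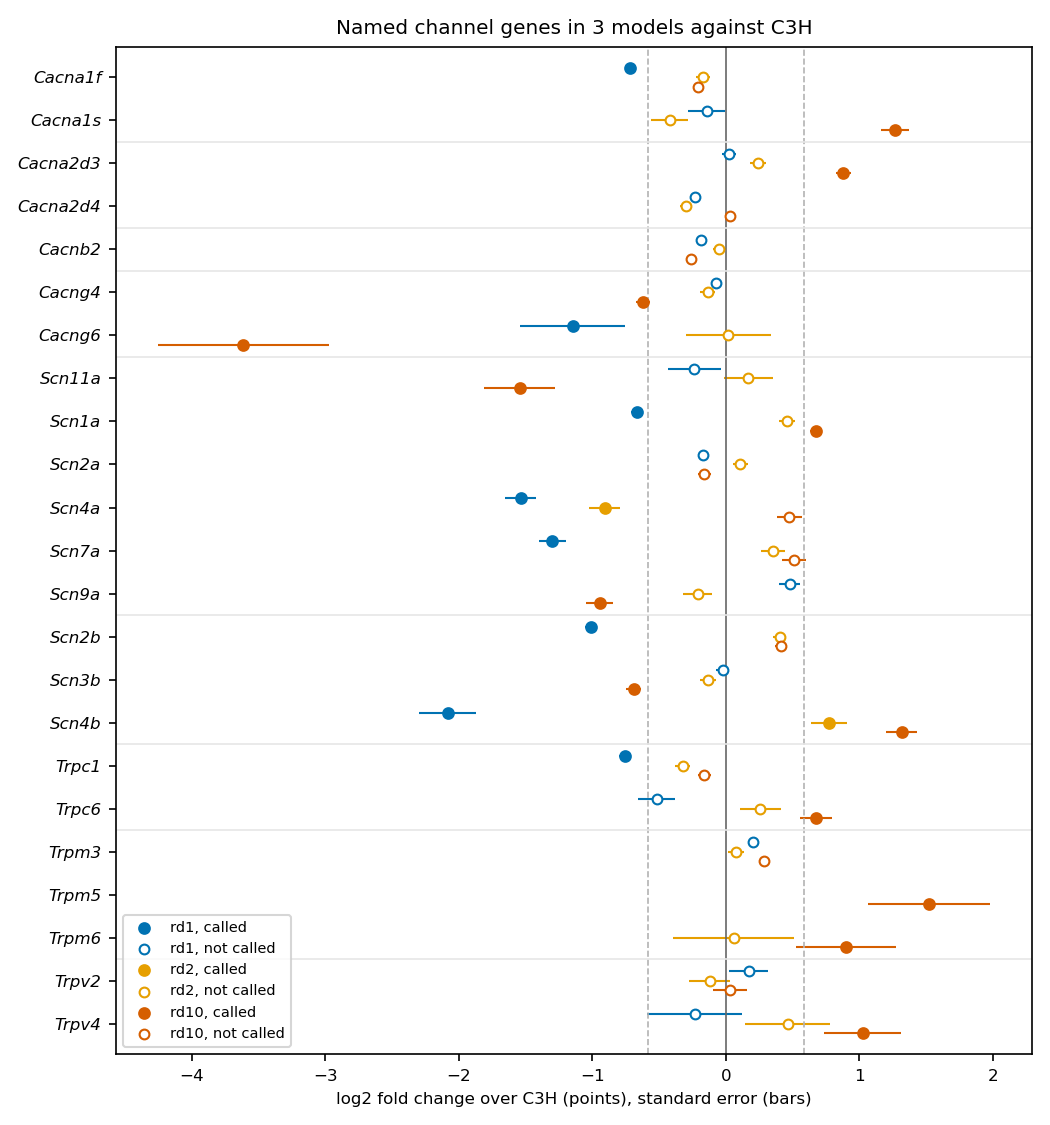
Log2 fold change over C3H (x axis, points) with its standard error (bars) for the named channel genes (y axis, by subfamily) in the 3 models (blue for Pde6b rd1, yellow for Prph rd2, orange for Pde6b rd10). Filled points were called and open points were not, dashed lines mark 1.5-fold, and a missing point means that the gene was under the low-count filter. All filled blue points lie left of 0, among them Scn4b at -2.08, while those of Pde6b rd10 lie on both sides.

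Of the sodium channel beta genes, Scn2b and Scn4b were lower than C3H in Pde6b rd1 and higher in both other models, and Scn3b was not.

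Scn4b encodes a disulfide-linked beta subunit known for its part in resurgent sodium current, and lies on chromosome 9 of GRCm38 from 45138395 to 45154152. It measured 0.718, 0.785 and 0.841 FPKM in C3H, 0.211, 0.212 and 0.156 in Pde6b rd1, 1.37, 1.23 and 1.5 in Prph rd2, and 1.94, 2.05 and 2.1 in Pde6b rd10. The 4 groups did not overlap, with Pde6b rd1 lowest and Pde6b rd10 highest. The log2 fold change over C3H was -2.08 in Pde6b rd1 (SE 0.21, adjusted p = 2.03e-08), 0.78 in Prph rd2 (SE 0.13, adjusted p = 0.00179) and 1.32 in Pde6b rd10 (SE 0.12, adjusted p = 5.37e-09). The direct contrasts, taken from a fit of all 12 samples, put it higher than in Pde6b rd1 by 3.43 in Pde6b rd10 (SE 0.16, adjusted p = 1.87e-13) and by 2.88 in Prph rd2 (SE 0.16, adjusted p = 2.20e-11) on the log2 scale.

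Scn2b, the other disulfide-linked beta subunit, is the upstream neighbour of Scn4b on the same strand, with 8.32 kb between the genes. Its levels were 17.9, 18.4 and 18.5 FPKM in C3H, 9.70, 9.56 and 9.39 in Pde6b rd1, 25.2, 24.5 and 24.6 in Prph rd2, and 24.8, 25.3 and 25.9 in Pde6b rd10. The Pde6b rd1 samples sat below all others, while Prph rd2 and Pde6b rd10 overlapped above C3H. Scn2b fell by 1.01 on the log2 scale in Pde6b rd1 (SE 0.04, adjusted p = 4.50e-15). The differences of 0.40 in Prph rd2 and 0.41 in Pde6b rd10 passed an adjusted p of 0.05 but stayed under 1.5-fold.

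Scn3b, a beta subunit bound to the pore without a disulfide link, differed in another model, with 9.22, 9.54 and 9.41 FPKM in C3H against 5.96, 6.23 and 5.97 in Pde6b rd10 (log2 fold change -0.69, SE 0.05, adjusted p = 9.88e-10). Its levels of 9.58, 9.30 and 10.3 FPKM in Pde6b rd1 overlapped C3H.

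**Figure D2:**
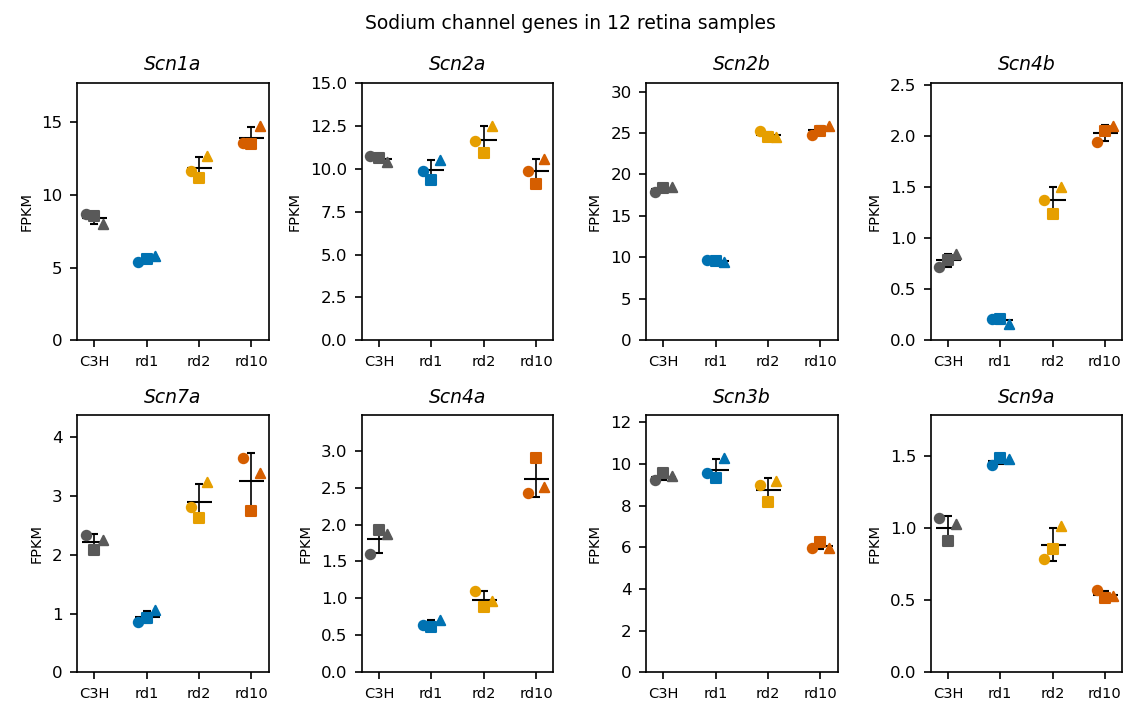
FPKM (y axis, from 0) of 8 sodium channel genes in the 12 retina samples, by group (x axis). Circles, squares and triangles are replicates 1, 2 and 3, and black bars show the mean and SD. Scn1a, Scn2b, Scn4b and Scn7a were lowest in Pde6b rd1 and higher in both other models than in C3H, Scn4a was lower than C3H in Prph rd2 too, Scn3b and Scn9a were lowest in Pde6b rd10, and Scn2a was called in no comparison.

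Of the alpha genes, Scn1a, Scn4a and Scn7a fell in Pde6b rd1. Scn1a encodes a main pore of fast-spiking neurons, and measured 8.71, 8.55 and 7.97 FPKM in C3H, 5.41, 5.57 and 5.80 in Pde6b rd1, 11.6, 11.2 and 12.7 in Prph rd2, and 13.6, 13.5 and 14.8 in Pde6b rd10. No 2 groups overlapped. The log2 fold change was -0.66 in Pde6b rd1 (SE 0.04, adjusted p = 1.68e-11) and 0.67 in Pde6b rd10 (SE 0.05, adjusted p = 1.07e-10), and the direct contrast between both was 1.36 (SE 0.06, adjusted p = 4.20e-14). In Prph rd2 the difference of 0.46 (SE 0.06, adjusted p = 1.54e-04) was under 1.5-fold. With limma on log2(FPKM + 0.1) and log2(FPKM + 1) the value in Pde6b rd1 was -0.58 and -0.51, under 1.5-fold and not called.

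Markers of the spiking cells of the retina moved as well. The 8 ganglion cell markers summed to between 1181 and 1207 CPM in C3H, 909 and 947 in Pde6b rd1, 1156 and 1243 in Prph rd2, and 1153 and 1180 in Pde6b rd10, with 1 of the 8 called lower in each Pde6b model and a median log2 fold change of -0.34 in Pde6b rd1. The 8 amacrine cell markers summed to between 909 and 919 CPM in C3H, 814 and 825 in Pde6b rd1, 1009 and 1057 in Prph rd2, and 988 and 1012 in Pde6b rd10, with a median of -0.42 and 1 marker called lower in Pde6b rd1 and none called in the others. The amacrine median was 0.11 in Prph rd2 and -0.003 in Pde6b rd10. Within this list Tfap2a and Tfap2b were higher in Pde6b rd1. Tfap2a measured 14.9 to 15.7 FPKM there against 12.6 to 13.5 in C3H, and Tfap2b 44.6 to 47.7 against 40.0 to 40.9. The other listed amacrine markers were lower there. The amacrine sums, and the cone sums given below, were below C3H in Pde6b rd1 and above it in the other models. The part of any of these cells in the sodium channel results was not tested.

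Scn7a encodes a sodium-sensing channel known from glia and from the brain regions that monitor salt in body fluids. Its levels were 2.34, 2.07 and 2.25 FPKM in C3H and 0.861, 0.927 and 1.06 in Pde6b rd1 (log2 fold change -1.30, SE 0.10, adjusted p = 1.56e-10). It stood at 2.82, 2.63 and 3.24 FPKM in Prph rd2 and 3.64, 2.74 and 3.40 in Pde6b rd10, above every C3H sample but by less than 1.5-fold. The summed level of 8 Mueller glia markers lay between 3680 and 3756 CPM in C3H and between 2133 and 2170 in Pde6b rd1, where 5 of the 8 were called lower. It lay between 4033 and 4122 CPM in Prph rd2 and between 3499 and 3634 in Pde6b rd10. The part of these cells in the difference was not tested.

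Scn4a, the pore of skeletal muscle, was the one sodium channel gene called lower in Prph rd2. It measured 1.60, 1.93 and 1.87 FPKM in C3H, 0.637, 0.608 and 0.715 in Pde6b rd1, 1.10, 0.878 and 0.967 in Prph rd2, and 2.43, 2.90 and 2.51 in Pde6b rd10, with no overlap between groups. The log2 fold change was -1.54 in Pde6b rd1 (SE 0.11, adjusted p = 9.84e-11) and -0.91 in Prph rd2 (SE 0.12, adjusted p = 1.50e-04). That of 0.47 in Pde6b rd10 was under 1.5-fold. The summed level of 10 skeletal muscle markers was between 4.39 and 5.32 CPM in C3H, 4.03 and 4.11 in Pde6b rd1, 4.01 and 4.41 in Prph rd2, and 4.0 and 4.59 in Pde6b rd10, and 4 of the 10 (Myh2, Myh4, Tnnt3 and Tnni2) had at most 3 counts in every sample.

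Scn9a and Scn11a, both known from sensory neurons of pain, fell in Pde6b rd10. Scn11a had 52, 57 and 42 counts in C3H, 45, 39 and 39 in Pde6b rd1, 60, 69 and 67 in Prph rd2, and 12, 21 and 20 in Pde6b rd10, where each count was lower than in any other sample. In FPKM these were 0.442, 0.4 and 0.357 in C3H against 0.0817, 0.189 and 0.169 in Pde6b rd10 (log2 fold change -1.54, SE 0.27, adjusted p = 5.25e-05). Scn9a fell by 0.94 on the log2 scale in Pde6b rd10 (SE 0.10, adjusted p = 1.05e-07), from between 0.915 and 1.07 FPKM in C3H to between 0.519 and 0.569. In Pde6b rd1 its level of 1.44 to 1.49 FPKM was above C3H, by 0.48 (SE 0.08, adjusted p = 3.51e-05), under 1.5-fold. An annotated antisense gene, Gm13629, overlaps exons of Scn9a.

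Scn1a, Scn7a and Scn9a lie with Scn3a and Scn2a in a run of 5 sodium channel genes on chromosome 2, from 65457118 to 66784914, and these neighbours did not move as a block. Scn2a, the highest alpha gene over all samples, measured 10.8, 10.7 and 10.4 FPKM in C3H, 9.91, 9.38 and 10.5 in Pde6b rd1, 11.6, 11 and 12.5 in Prph rd2, and 9.87, 9.14 and 10.6 in Pde6b rd10, and was called in no comparison. In Pde6b rd1 the log2 fold change was 0.17 for Scn3a, -0.17 for Scn2a, -0.66 for Scn1a, 0.48 for Scn9a and -1.30 for Scn7a. In Pde6b rd10 it was -0.29, -0.16, 0.67, -0.94 and 0.51 in the same order. Scn1a and Scn9a, 39.2 kb apart on the same strand, were called in opposite directions there.

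**Figure D3:**
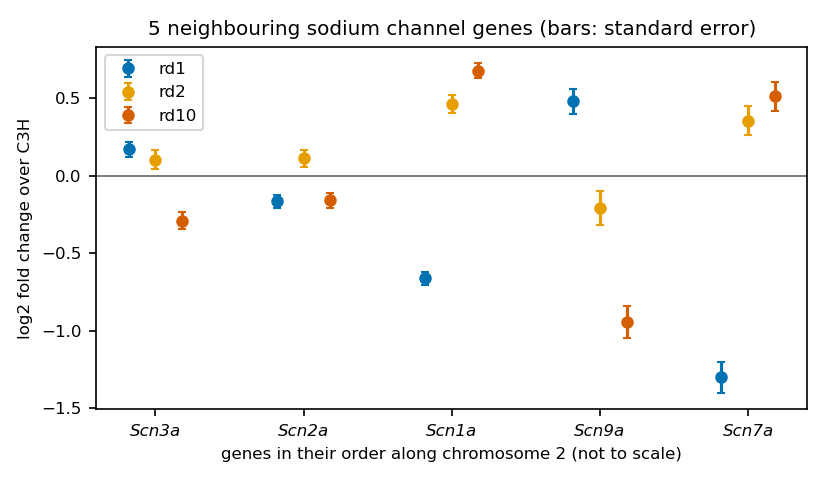
Log2 fold change over C3H (y axis, points) with its standard error (bars) for 5 sodium channel genes in their order along chromosome 2 (x axis, not to scale) in 3 models. Scn1a and Scn7a lie below 0 in Pde6b rd1 and above 0 in Pde6b rd10, and Scn9a does the reverse.

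Among the calcium channel pores, Cacna1f and Cacna1s were the only genes called, each in 1 model. Cacna1f encodes the L-type pore of photoreceptor terminals and lies on the X chromosome from 7607083 to 7635196. It stood at 22.8, 24.1 and 23.9 FPKM in C3H, 15.6, 14.7 and 15.0 in Pde6b rd1, 22.5, 20.8 and 21 in Prph rd2, and 21, 21 and 21.7 in Pde6b rd10. The Pde6b rd1 samples lay far below the rest, and the other models lay slightly below C3H. It fell by 0.72 on the log2 scale in Pde6b rd1 (SE 0.04, adjusted p = 6.92e-14), and the differences of -0.17 in Prph rd2 and -0.21 in Pde6b rd10 were under 1.5-fold. The rod marker sums given above were also lowest in Pde6b rd1, and 5 of the 8 rod markers were called lower there. The rod marker Nr2e3 was higher, at 204 to 211 FPKM against 184 to 189 in C3H, and was not called. The 8 bipolar cell markers summed to 2021 to 2036 CPM in Pde6b rd1 against 1719 to 1762 in C3H. Their median log2 fold change was -0.10, and none was called. The part of these markers in the difference, and that of the sex markers that differ between the same groups, was not tested.

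Cacna2d4, which pairs with Cacna1f at the photoreceptor synapse, measured 45.3, 45.5 and 44.1 FPKM in Pde6b rd1, 42.9, 41.1 and 41.3 in Prph rd2, and 52.1, 54.9 and 52.9 in Pde6b rd10. Pde6b rd1 (log2 fold change -0.23, SE 0.03, adjusted p = 3.03e-07) and Prph rd2 (-0.30, SE 0.04, adjusted p = 4.23e-04) lay below C3H, and neither reached 1.5-fold. Cacnb2, a beta subunit of the same channel, stood at 20.1, 20.4 and 19.5 FPKM in C3H, 18.6, 18.2 and 18.8 in Pde6b rd1, 19.7, 19.3 and 20.4 in Prph rd2, and 17.7, 16.6 and 17.7 in Pde6b rd10. The 3 subunits of the photoreceptor channel thus had log2 fold changes of -0.72, -0.23 and -0.18 in Pde6b rd1, of which only that of Cacna1f was called.

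Cacna1s, the L-type pore and voltage sensor of skeletal muscle, rose in Pde6b rd10. Its levels were 0.800, 0.845 and 0.979 FPKM in C3H, 0.923, 0.904 and 0.666 in Pde6b rd1, 0.723, 0.619 and 0.661 in Prph rd2, and 2.16, 2.31 and 2.09 in Pde6b rd10. The 3 Pde6b rd10 samples lay far above all others (log2 fold change over C3H 1.27, SE 0.10, adjusted p = 1.75e-09). The sums of skeletal muscle markers given above did not exceed the C3H range in that model, but single markers differed in direction. Myl1 had 5, 8 and 3 counts there against 1, 1 and 0 in C3H, and Actn3 had 11, 9 and 6 against 3, 4 and 5. Of the 3 muscle markers with enough reads to test, 1 was called lower. The part of muscle tissue in the difference was not tested. Exons of Cacna1s overlap an annotated antisense gene, Gm37759. The other 8 pore genes were called in no model against C3H.

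Cacna2d3, an alpha2delta subunit known from sensory pathways, rose in Pde6b rd10, from 3.84, 4.05 and 4.11 FPKM in C3H to 7.49, 7.30 and 8.17 (log2 fold change 0.88, SE 0.06, adjusted p = 3.52e-11). It stood between 4.20 and 4.38 FPKM in Pde6b rd1 and between 4.66 and 4.95 in Prph rd2. Of the 4 Cacna2d genes it was the only one called, and none of the 4 Cacnb genes was called by edgeR or DESeq2 in any model against C3H.

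Cacng4 was the channel gene with the second highest level in C3H, at 42.2, 42.5 and 44.0 FPKM, and measured 43.1, 44.7 and 41.1 in Pde6b rd1, 41.1, 42.2 and 36.6 in Prph rd2, and 29.2, 31.4 and 26.6 in Pde6b rd10. The Pde6b rd10 samples were lower than all others, with a log2 fold change of -0.62 (SE 0.05, adjusted p = 2.70e-09) that was -0.55, under 1.5-fold, without Pde6b rd10 replicate 3. Cacng6, a gamma subunit gene of low expression, had 20, 15 and 16 counts in C3H, 7, 8 and 7 in Pde6b rd1, 22, 22 and 16 in Prph rd2, and 4, 0 and 0 in Pde6b rd10. Both Pde6b models lay below all C3H samples, with a log2 fold change of -1.15 in Pde6b rd1 (SE 0.39, adjusted p = 0.0203) and of -3.61 in Pde6b rd10 (SE 0.64, adjusted p = 5.05e-05), the latter a fitted value that rests on 4 reads and depends on the prior count. Cacng8 and Cacng7, the neighbours of Cacng6 on chromosome 7, were not called in either model.

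**Figure D4:**
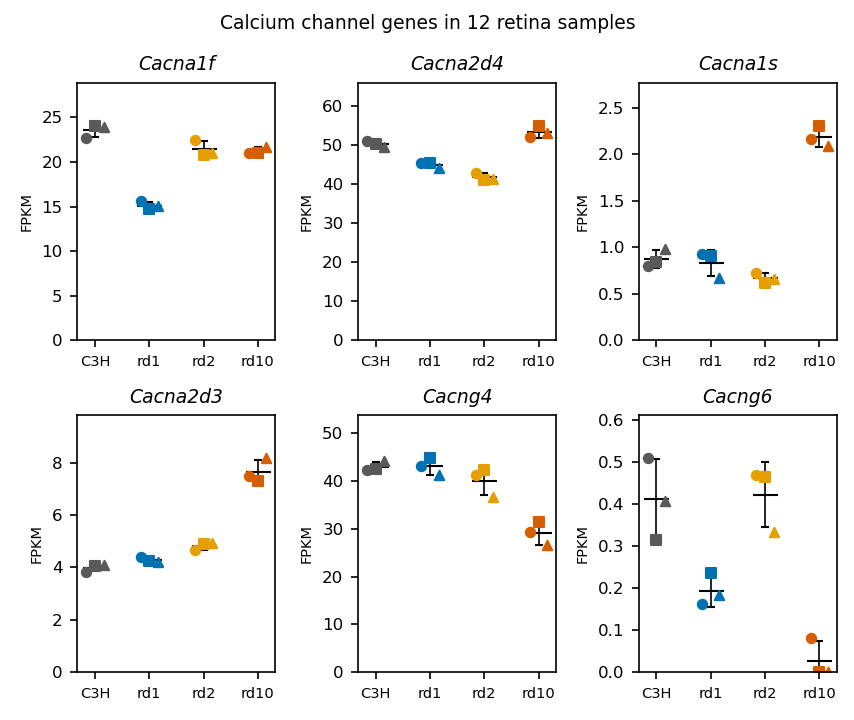
FPKM (y axis, from 0) of 6 calcium channel genes in the 12 retina samples, by group (x axis). Circles, squares and triangles are replicates 1, 2 and 3, and black bars show the mean and SD. Cacna1f was lowest in Pde6b rd1, at 14.7 to 15.6 FPKM, Cacna1s and Cacna2d3 were highest in Pde6b rd10, and Cacng4 and Cacng6 were lowest in Pde6b rd10.

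TRP genes gave 1 call in Pde6b rd1, 4 in Pde6b rd10 and none in Prph rd2 by edgeR or DESeq2. Trpc1, whose product joins other TRPC subunits in mixed channels, measured 11.5, 11.3 and 10.6 FPKM in C3H, 6.80, 7.17 and 6.94 in Pde6b rd1, 8.91, 8.95 and 9.49 in Prph rd2, and 10.5, 9.76 and 10.8 in Pde6b rd10. Pde6b rd1 was lowest, Prph rd2 next, and Pde6b rd10 overlapped C3H. It fell by 0.75 on the log2 scale in Pde6b rd1 (SE 0.04, adjusted p = 1.34e-12), and the difference of -0.32 in Prph rd2 was under 1.5-fold.

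Trpc6, a channel opened by diacylglycerol, rose in Pde6b rd10, with 2.03, 1.63 and 2.08 FPKM against 1.25, 1.12 and 1.12 in C3H (log2 fold change 0.68, SE 0.12, adjusted p = 5.33e-05). It stood at 0.777, 0.764 and 1.01 FPKM in Pde6b rd1, below every C3H sample but under 1.5-fold, and at 1.05, 1.66 and 1.55 in Prph rd2, where the samples straddled C3H. Trpv4, an osmosensitive channel known from Mueller glia, had 10, 22 and 16 counts in C3H, 14, 11 and 14 in Pde6b rd1, 28, 27 and 21 in Prph rd2, and 37, 37 and 27 in Pde6b rd10. It rose in Pde6b rd10 by 1.03 (SE 0.29, adjusted p = 0.00485), and with the C3H sample of the same day as the only control, which is then assumed to vary like the Pde6b rd10 samples, the value was 0.74 and was no longer called.

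Trpm5, the calcium-activated channel of taste cells, and Trpm6, a channel kinase of magnesium uptake, were called higher in Pde6b rd10 from few reads. Trpm5 had 28, 22 and 10 counts there and 2, 13 and 5 in C3H, so that the groups overlapped (log2 fold change 1.52, SE 0.46, adjusted p = 0.0078), and exons of Tssc4 on the opposite strand overlap it. Its counts in the other models were 6, 7 and 2 (Pde6b rd1) and 7, 10 and 4 (Prph rd2). Trpm6 had 14, 20 and 22 counts in Pde6b rd10 and 12, 10 and 7 in C3H (log2 fold change 0.90, SE 0.37, adjusted p = 0.045). Its call was lost without Pde6b rd10 replicate 2 or 3 and without C3H replicate 2 or 3, with values between 0.74 and 0.83.

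Trpm3, an ion channel gene that hosts the microRNA Mir204, was the highest TRP gene. It measured 22.1, 22.6 and 22.2 FPKM in C3H, 27.7, 25.7 and 27.6 in Pde6b rd1, 25.5, 22 and 24.6 in Prph rd2, and 27.7, 28.2 and 28.9 in Pde6b rd10. Both Pde6b models lay above C3H, by 0.20 (SE 0.04, adjusted p = 5.23e-05) and 0.29 (SE 0.04, adjusted p = 1.57e-06) on the log2 scale, which is under 1.5-fold. Trpv2, the leading Trpv gene, stood at 1.10, 1.28 and 1.07 FPKM in C3H, 1.69, 1.23 and 1.15 in Pde6b rd1, 1.09, 1.30 and 0.874 in Prph rd2, and 1.29, 1.17 and 1.21 in Pde6b rd10, with all groups overlapping C3H.

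**Figure D5:**
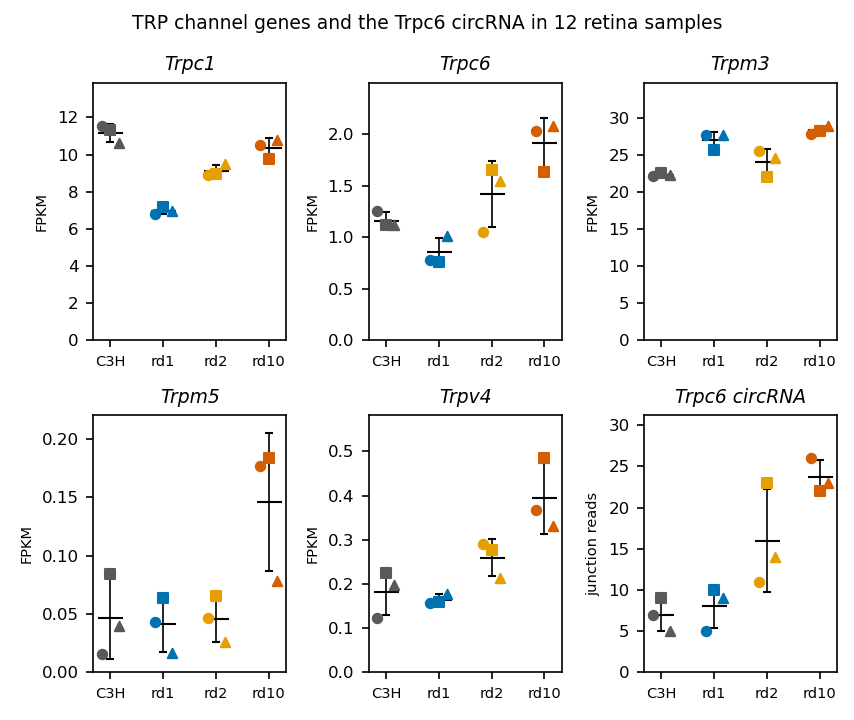
FPKM (y axis, from 0) of 5 TRP channel genes and, in the last panel, back-splice junction reads of the Trpc6 circRNA in the 12 retina samples, by group (x axis). Circles, squares and triangles are replicates 1, 2 and 3, and black bars show the mean and SD. Trpc1 was lowest in Pde6b rd1, Trpm5 and Trpv4 had their highest values in Pde6b rd10, and the Trpc6 circRNA had 22 to 26 reads in Pde6b rd10 against 5 to 9 in C3H.

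Markers of other cell types differed in Pde6b rd10. The 5 astrocyte and reactive glia markers summed to between 760 and 819 CPM there, against 202 to 217 in C3H, 209 to 218 in Pde6b rd1 and 160 to 187 in Prph rd2, and 3 of the 5 were called higher. Among them Gfap, the filament protein of reactive glia, measured 82.6, 87.0 and 79.3 FPKM in Pde6b rd10 and 8.47, 8.77 and 8.96 in C3H. The 8 Mueller glia markers, of the cells that Trpv4 is known from, summed to 3499 to 3634 CPM in Pde6b rd10 against 3680 to 3756 in C3H, with 2133 to 2170 for Pde6b rd1 and 4033 to 4122 for Prph rd2. The 6 lens markers summed to between 4.24 and 5.07 CPM in Pde6b rd10 and to at most 1.91 CPM in C3H.

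The summed level of 8 microglia markers was between 166 and 183 CPM there, against 55.8 to 58.3 in C3H, 56.4 to 60.9 in Pde6b rd1 and 49.8 to 50.6 in Prph rd2, and 7 of the 8 were called higher. The 8 cone markers summed to 783 to 795 CPM in Pde6b rd10, 502 to 513 in C3H, 364 to 372 in Pde6b rd1 and 536 to 553 in Prph rd2. Of these, 4 were called higher and 1 lower in Pde6b rd10, and 1 higher and 4 lower in Pde6b rd1. None was called in Prph rd2, where the median log2 fold change was -0.09. Gngt2 went against the sums, at 8.57 to 9.43 FPKM in Pde6b rd10, 14.8 to 18.4 in C3H and 32.7 to 34.9 in Pde6b rd1. The 6 immature neuron markers summed to 593 to 630 CPM in Pde6b rd10, 840 to 851 in C3H, 1153 to 1180 in Pde6b rd1 and 754 to 807 in Prph rd2. The part of any of these lists in the channel results was not tested.

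The C3H samples of different labelled days lay close together in the channel genes. Over the 43 members with a mean of at least 1 FPKM, the C3H sample of day 13 differed from the mean of the samples of days 23 and 29 by a median of 4.98% and at most 16.1%. Of the 9 genes called in Pde6b rd1, which were chosen for their low level there, 8 differed by between -16.1 and 8.28% between these C3H samples, and by between -76.2 and -32.3% between Pde6b rd1 and the same later C3H samples. Cacng6, with few reads, was higher by 40.8% in the C3H sample of day 13. Over all genes with enough reads, the difference between 2 samples was also taken as a chi-square value per gene. It was 1.75 to 2.94 between C3H samples, 1.72 to 3.50 within Pde6b rd1, 5.43 to 10.9 within Prph rd2 and 2.39 to 6.37 within Pde6b rd10. C3H samples labelled with different days were thus about as alike as samples of 1 day. No effect of age can be read from them, and its part in the Pde6b rd1 differences was not tested.

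The 2 Pde6b models were compared directly, since both carry mutations in the same gene. Between them 22 of 54 channel genes were called, 40.7% against 28.8% of all 19616 genes, with 18 higher and 4 lower in Pde6b rd10 where 17.6 and 11.2% of all genes were. Among the sodium channel beta genes called were Scn4b at 3.43, Scn2b at 1.45 (SE 0.04, adjusted p = 3.31e-16) and Scn3b at -0.64 (SE 0.06, adjusted p = 1.67e-08) on the log2 scale. Scn4a was higher in Pde6b rd10 by 2.04 (SE 0.12, adjusted p = 9.59e-12), Scn7a by 1.83 (SE 0.12, adjusted p = 4.55e-11) and Cacna1s by 1.44 (SE 0.12, adjusted p = 2.45e-09), and Scn9a was lower by 1.40 (SE 0.10, adjusted p = 2.99e-10). Among genes called in no model against C3H, Cacnb4 differed by 0.85 (SE 0.09, adjusted p = 5.64e-08), Cacna1i by 0.80, Cacna1h by 0.69, Trpm2 by 0.61 and Trpv3 by 1.16 (SE 0.51, adjusted p = 0.0556); these 5 were named after their values were seen. The call of Trpm2 was lost without Pde6b rd10 replicate 2 (0.56) or Pde6b rd1 replicate 1 (0.55) and with limma on log2(FPKM + 0.1) (0.51). That of Trpv3 was lost with DESeq2 and without Pde6b rd10 replicate 2 or 3 or Pde6b rd1 replicate 1 or 2, with values between 1.03 and 1.17, and with limma on log2(FPKM + 0.1) (0.42). Between Prph rd2 and Pde6b rd1, 13 channel genes were called higher in Prph rd2 and 1 lower (all genes 8.21 and 8.66%), and between Pde6b rd10 and Prph rd2, those of Pde6b rd10 were higher for 5 genes and lower for 3 (all genes 13.5 and 6.16%).

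A list of 62 further genes of calcium and sodium handling held exchangers, pumps, calcium release channels, binding proteins, calpains and proteins that attach to channels. It also held other cation channels, among them Trpa1, Nalcn and the Asic genes. In Pde6b rd1 the list gave 7 calls of 58 tested, all lower by edgeR. This is 12.1% against 15.0% of all genes, with 6.03% of all genes lower. At an unadjusted p under 0.05 with any fold 9 were higher and 36 lower (15.5 and 62.1%, against 25.0 and 24.7% of all genes). It gave 8 calls of 58 in Pde6b rd10 (6 higher and 2 lower, 13.8% against 23.9% of all genes) and 2 of 57 in Prph rd2 (1 in each direction, 3.51% against 4.57%). Pvalb, the calcium buffer parvalbumin, measured 2.03, 2.28 and 2.08 FPKM in C3H, 0.924, 1.13 and 0.848 in Pde6b rd1, 5.32, 5.62 and 4.64 in Prph rd2, and 16.3, 14.0 and 15.5 in Pde6b rd10. It was called in each model, lower in Pde6b rd1 and higher in the others, as was Scn4b, with log2 fold changes of -1.22 (SE 0.25, adjusted p = 2.50e-04), 1.25 (SE 0.15, adjusted p = 1.06e-04) and 2.78 (SE 0.12, adjusted p = 5.69e-14).

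Of the called genes, 3 were exchangers of sodium for calcium and potassium. Slc24a1, the exchanger of the rod outer segment, stood at 159, 156 and 161 FPKM in C3H and 58.7, 59.0 and 59.8 in Pde6b rd1 (log2 fold change -1.50, SE 0.03, adjusted p = 3.51e-22), and between 127 and 144 FPKM in the other models. Slc24a4 fell by 1.31 (SE 0.05, adjusted p = 6.62e-16) in Pde6b rd1, and Slc24a2, the exchanger of cones, rose by 1.17 (SE 0.05, adjusted p = 1.78e-14) in Pde6b rd10. Atp2a3, a calcium pump of the endoplasmic reticulum, fell by 1.61 (SE 0.16, adjusted p = 1.23e-08) in Pde6b rd1, and Ryr3, a calcium release channel, fell by 1.31 (SE 0.05, adjusted p = 7.89e-15) in Pde6b rd10.

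CircRNAs gave a second readout of the channel genes, as reads across back-splice junctions. Of 12510 circRNAs in the table, 84 came from 23 channel genes, 55 of them found in more than 1 sample and 3 in all 12. Channel junction reads numbered between 39 and 144 of the 9819 to 25009 junction reads of a sample. Tested were circRNAs with 2 junction reads or more in 3 or more of the 6 samples, and called were those with an unadjusted p under 0.05 and a change of 2-fold or more. This gave 2 calls of 19 tested in Pde6b rd10, both higher (11.8% of all circRNAs called, 6.71% higher, 5.13% lower), and 1 of 12 in Prph rd2, higher (3.44% called, 2.04% higher). The 2 called of 11 in Pde6b rd1 (6.37% of all called, 5.25% lower) passed the filter through their C3H reads alone, so that they had to differ, and nothing is read from them.

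The Trpc6 circRNA, whose junction is shown above, spans exons 4 to 10 of Trpc6-201 at chr9:8634047-8658377 on the plus strand. It had 7, 9 and 5 junction reads in C3H, 5, 10 and 9 in Pde6b rd1, 11, 23 and 14 in Prph rd2, and 26, 22 and 23 in Pde6b rd10. Before scaling to depth, every Pde6b rd10 sample had more of these reads than any C3H or Pde6b rd1 sample. All junction reads of a sample numbered 9819 to 14966 in Pde6b rd1, 14538 to 22036 in C3H and 18083 to 25009 in Pde6b rd10. The Pde6b rd1 sample with 10 of the Trpc6 reads had 9819 in all, and the Pde6b rd10 sample with 26 had 25009. The unscaled gap between these 2 models is therefore not read as a difference. The log2 fold change of Pde6b rd10 over C3H, scaled to depth, was 1.53 (SE 0.35, adjusted p = 0.0111). The gene counts of Trpc6 were higher in this model too, by 0.68. In Pde6b rd1 the circRNA differed from C3H by 0.62 and the gene by -0.52, neither of them called. The call in Prph rd2 had an adjusted p of 0.956 from edgeR and was lost without Prph rd2 replicate 2 or C3H replicate 3, with log2 fold changes of 0.72 and 1.00.

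The Trpm3 circRNA of exons 7 to 8 had 18, 4 and 9 junction reads in Pde6b rd10 and 3, 1 and 2 in C3H, called at an adjusted p of 0.147 by edgeR (log2 fold change 2.02, SE 0.73) and not called without Pde6b rd10 replicate 1. The circRNA of Cacna1f, exons 35 to 45, had 0, 1 and 0 reads in Pde6b rd1 and 3, 6 and 7 in C3H, and that of Cacna2d1, exons 11 to 21, had 0, 0 and 0 against 2, 4 and 3. These are the 2 that passed the filter through C3H alone, and their values are given as a description. The Cacnb2 circRNA had between 9 and 16 reads in C3H and Pde6b rd10, while Pde6b rd1 had 12, 4 and 6 and Prph rd2 had 6, 25 and 17. From Cacna2d3, the gene that rose in Pde6b rd10, circRNA reads numbered 4, 4 and 3 in the Pde6b rd10 samples and 0 in the other 9.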

How the data were processed

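Retinal RNA of 12 samples (C3H, Pde6b rd1, Prph rd2 and Pde6b rd10, 3 each, grouped by their titles) was sequenced on directional libraries. The deposited gene counts are reads per gene that the authors aligned to GRCm38 and counted with HTSeq 0.11.2, without normalization, and the strand setting of this step is not given in the sources used here. The authors derived the FPKM values from the same counts, gene lengths and the reads on genes. The deposited circRNA junction counts came from TopHat2 2.1.1 and CIRCexplorer 2.2.3, with candidates under 2 junction reads discarded, and the authors' TPM values scale these to all circRNA reads of a sample and were not used. Tool names and versions are from the submitters' processing notes and the paper's methods.

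Depth was 17049495 to 24755890 reads on genes per sample. The floor of 3 counts was 0.121 to 0.176 CPM and covers counting error only, since these reads carry no molecular identifiers.

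Tests were run in R 4.3.3 with edgeR 4.0.16 (TMM, filterByExpr, quasi-likelihood test) on all genes, each model with the 3 C3H samples on its own and the models among themselves in a fit of all 12 samples. Also tried were DESeq2 1.42.0, limma 3.58.1 on FPKM plus 1 or 0.1 in log2, other size factors, filters, thresholds and sample sets, and each replicate left out. The edgeR tests of genes and of circRNAs, at their main settings, were tried on simulated data, and the other steps were not. Named are the channel genes called in at least 1 model against C3H and the highest of each subfamily, and handling genes called with at least 2-fold at an adjusted p under 0.05. The channel genes and lists were chosen with earlier results of these data known. Figures and annotation used Python 3.11.15, pandas 2.3.3, numpy 2.4.6 and matplotlib 3.10.9. Promoters are from RefSeq, GRCm38.p6. One channel gene that met this rule is left out of the text.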

Additional observations from a re-analysis of the deposited data

Results flagged for a closer look

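Scn4b and Scn1a were called in opposite directions against C3H in different models, and the direct contrasts of the models in a fit of all 12 samples were called as well. Scn4b was higher than in Pde6b rd1 by 3.43 in Pde6b rd10 and by 2.88 in Prph rd2, and Scn1a was higher by 1.36 in Pde6b rd10, all on the log2 scale. The call of Scn1a in Pde6b rd1 was lost with limma on log2(FPKM + 0.1), at -0.58, and on log2(FPKM + 1), at -0.51, both under 1.5-fold. That of Scn4b in Pde6b rd1 was lost with limma on log2(FPKM + 1), at -0.58. The models differ in labelled day, in the sex markers and, for Pde6b rd10, in strain, which cannot be told apart from genotype here.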

How the results depend on the processing

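The count of channel genes called (9 in Pde6b rd1, 13 in Pde6b rd10, 2 in Prph rd2 and 22 between the Pde6b models) kept within 1.5-fold under other size factors, DESeq2, both low-count filters, limma on log2(FPKM + 0.1), the adjusted p with the same fold and other sample sets. At an adjusted p under 0.05 with no fold threshold the counts were 32, 39, 17 and 40. With limma on log2(FPKM + 1), which compresses low levels, they were 4 in Pde6b rd10, 0 in Prph rd2 and 14 between the Pde6b models, and among the lost calls are Scn4a and Scn4b in Prph rd2, with 0.1 added called again. In Pde6b rd1 the same setting lost the calls of Scn4b (-0.58), Scn1a (-0.51) and Cacng6 (-0.24). Leaving out 1 replicate gave 9 to 10, 11 to 13, 2 to 2 and 20 to 23 channel genes, and 0 to 2, 1 to 3 and 0 to 3 circRNAs in Pde6b rd1, Pde6b rd10 and Prph rd2. With at least 2 junction reads required in all 6 samples, 0 circRNAs were called in Pde6b rd1 and 1 in Pde6b rd10. The replicate block changed no count of channel genes and left 1 circRNA called in Pde6b rd1; both circRNAs counted there had passed the filter through C3H alone and drop out without any 1 C3H sample by construction. In no comparison did every pair of same-numbered samples correlate above 0.1, so the numbers are not taken to pair samples. Of the single-gene values recomputed, 1209 kept their direction and side of the threshold, 53 lost and 17 gained the call, and none reversed. Trpm6 in Pde6b rd10 was also lost with DESeq2, and Trpm5 (0.74) with only the C3H sample of day 23. A 1 CPM filter dropped Cacng6, Trpm5 and Trpm6. Scn1a in Pde6b rd1 was under 1.5-fold with limma on either scale. Depth limits Cacng6, Trpm5, Trpm6, Trpv3 and most circRNAs to few reads a sample.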
